A study of Mus musculus with 6 samples.

Results

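The genes described here are 10 genes of the AP-1 transcription factor family and of the immediate early response: Fos, Fosb, Fosl2, Jun, Junb, Jund, Atf3, Egr1, Ier2 and Dusp1. They were taken by gene symbol from the platform annotation of the array, where all 10 genes were present with 15 of 12422 probe sets that are not controls. RNA came from skin keratinocytes of transgenic mice that express green fluorescent protein (EGFP) under the K15 promoter, that of keratin 15, which is known to be active in the hair follicle bulge. Cells positive for surface α6 integrin were sorted into an EGFP-high group and an EGFP-negative group, with 3 arrays in each and replicate numbers 1, 2 and 3 shared between them. Both groups carry the transgene, and both were positive for the integrin. The labels give no age, sex or strain, and they do not say whether a number stands for a mouse, a pool of mice or a sort, and so a p-value here reflects only how much these 6 arrays vary, in part perhaps for technical reasons.

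AP-1 is a dimer of basic leucine zipper proteins. Jun proteins pair with each other, with Fos proteins or with ATF proteins, and the dimer binds a short palindromic DNA element. Immediate early genes are those that a cell transcribes within minutes of a stimulus, such as serum, a growth factor, wounding or stress, without first making new protein. Fos, Fosb, Jun, Junb, Atf3, Egr1, Ier2 and Dusp1 all belong to this class. Jund and Fosl2 are AP-1 subunits with a slower or steadier expression. In epidermis AP-1 dimers act on genes of proliferation, wound repair and terminal differentiation.

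Promoters are shown for 6 of the immediate early members, each of which holds at least 1 of the elements marked. RefSeq start sites (GRCm38.p6) were found for 8 of the 10 genes, and each window holds the 150 bases before the start, 5′ to 3′ on the strand of the gene. Capitals mark TGACG on either strand, the core of the cyclic AMP response element, the palindrome TGANNTCA, forms of which AP-1 and ATF dimers are known to bind, and TATAAA on the gene strand.
Fos, chr12:85473740-85473889, + strand: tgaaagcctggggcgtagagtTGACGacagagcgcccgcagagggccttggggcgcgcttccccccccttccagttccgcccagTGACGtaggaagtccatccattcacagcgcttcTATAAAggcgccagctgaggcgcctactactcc
Fosb, chr7:19310046-19310195, - strand: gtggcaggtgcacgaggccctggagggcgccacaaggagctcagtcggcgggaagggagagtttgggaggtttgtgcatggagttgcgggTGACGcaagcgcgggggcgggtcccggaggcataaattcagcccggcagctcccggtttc
Jun, chr4:95052223-95052372, - strand: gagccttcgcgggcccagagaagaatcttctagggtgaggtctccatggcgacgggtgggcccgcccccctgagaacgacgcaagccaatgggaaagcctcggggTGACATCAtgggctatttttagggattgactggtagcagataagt
Junb, chr8:84978749-84978898, - strand: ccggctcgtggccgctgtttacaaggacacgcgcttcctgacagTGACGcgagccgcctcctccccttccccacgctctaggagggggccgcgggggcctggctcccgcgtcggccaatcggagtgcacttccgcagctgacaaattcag
Atf3, chr1:191183334-191183483, - strand: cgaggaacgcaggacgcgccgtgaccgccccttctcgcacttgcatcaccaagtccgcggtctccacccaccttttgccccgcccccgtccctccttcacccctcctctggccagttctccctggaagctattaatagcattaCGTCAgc
Dusp1, chr17:26508473-26508622, - strand: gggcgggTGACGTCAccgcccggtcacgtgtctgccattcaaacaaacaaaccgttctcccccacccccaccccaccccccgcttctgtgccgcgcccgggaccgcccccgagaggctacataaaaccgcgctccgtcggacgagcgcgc

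TGACG on either strand was present in 5 of the 8 windows (Fos, Fosb, Junb, Atf3 and Dusp1), against 13.3% of 32851 windows of the same length in the RefSeq table. TGANNTCA was present in 3 of 8 (Jun, Jund and Dusp1), against 8.37% of all windows. In Jun it reads TGACATCA and begins 45 bases before the start. In Dusp1 it reads TGACGTCA and begins 143 bases before the start, where it overlaps TGACG on both strands. The full letters TGACGTCA occur in 1.36% of all windows. The 7-letter form TGANTCA was found in 0 of the 8 windows and in 4.24% of all windows, and the CArG box, the element of serum response factor, in 0 of 8 and 0.916%. These matches describe letters in a short window and not binding.

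The labels were read against genes of the sort. Cd34, which bulge cells of the mouse carry on their surface, read 1338.8 to 1579 on the EGFP-high arrays and 29.4 to 40.9 on the EGFP-negative arrays (160358_at). Itga6, the gene of the α6 integrin, read 405.6 to 585.3 against 1050 to 1371.4. The probe set of Krt15 read at most 7.4 on any array, so these arrays give no check through the gene whose promoter drives EGFP, and those of the basal keratins Krt14 and Krt5 were also low (6.8 to 48.9). The median intensity of an array lay between 69.75 and 76.2, and 19 control probe sets of bacterial and yeast genes had a 95th percentile between 25.5 and 42.2, taken here as the background. The array of EGFP-negative replicate 3 stood apart for the genes described here. It held the highest of the 6 values for 12 of the 14 tested member probe sets, and for 13.6% of all tested probe sets.

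The AP-1 and immediate early genes did not pass the test between EGFP-high and EGFP-negative keratinocytes, with 1 exception. Junb passed, as lower in EGFP-high, when the replicate number was a block. Without the block, 0 of 14 member probe sets tested passed an adjusted p of 0.05 in either direction, where 5.19% of all 7453 tested probe sets passed, 3.02% higher and 2.17% lower in EGFP-high (limma, Benjamini-Hochberg over all tested probe sets). At an unadjusted p below 0.05 there was 1 member probe set without the block, against 17.1% of all. With the block there were 6, against 23.7% of all (limma). The fit without the block counts the spread between replicate numbers as error. Its SEs are therefore wide for genes that vary with the number, as for Fosb (0.82, and 0.16 with the block). The groups overlapped for every one of the 14, whereas 22.7% of all tested probe sets did not overlap. The median EGFP-high minus EGFP-negative difference over the 14 was -0.20 on the log2 scale, with 10 below 0 and 4 above, against a median of 0.00 over all tested probe sets. The fifteenth probe set, 161645_r_at of Atf3, read 4 to 7.7, below the background on all 6 arrays, and was not tested.

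**Figure D1:**
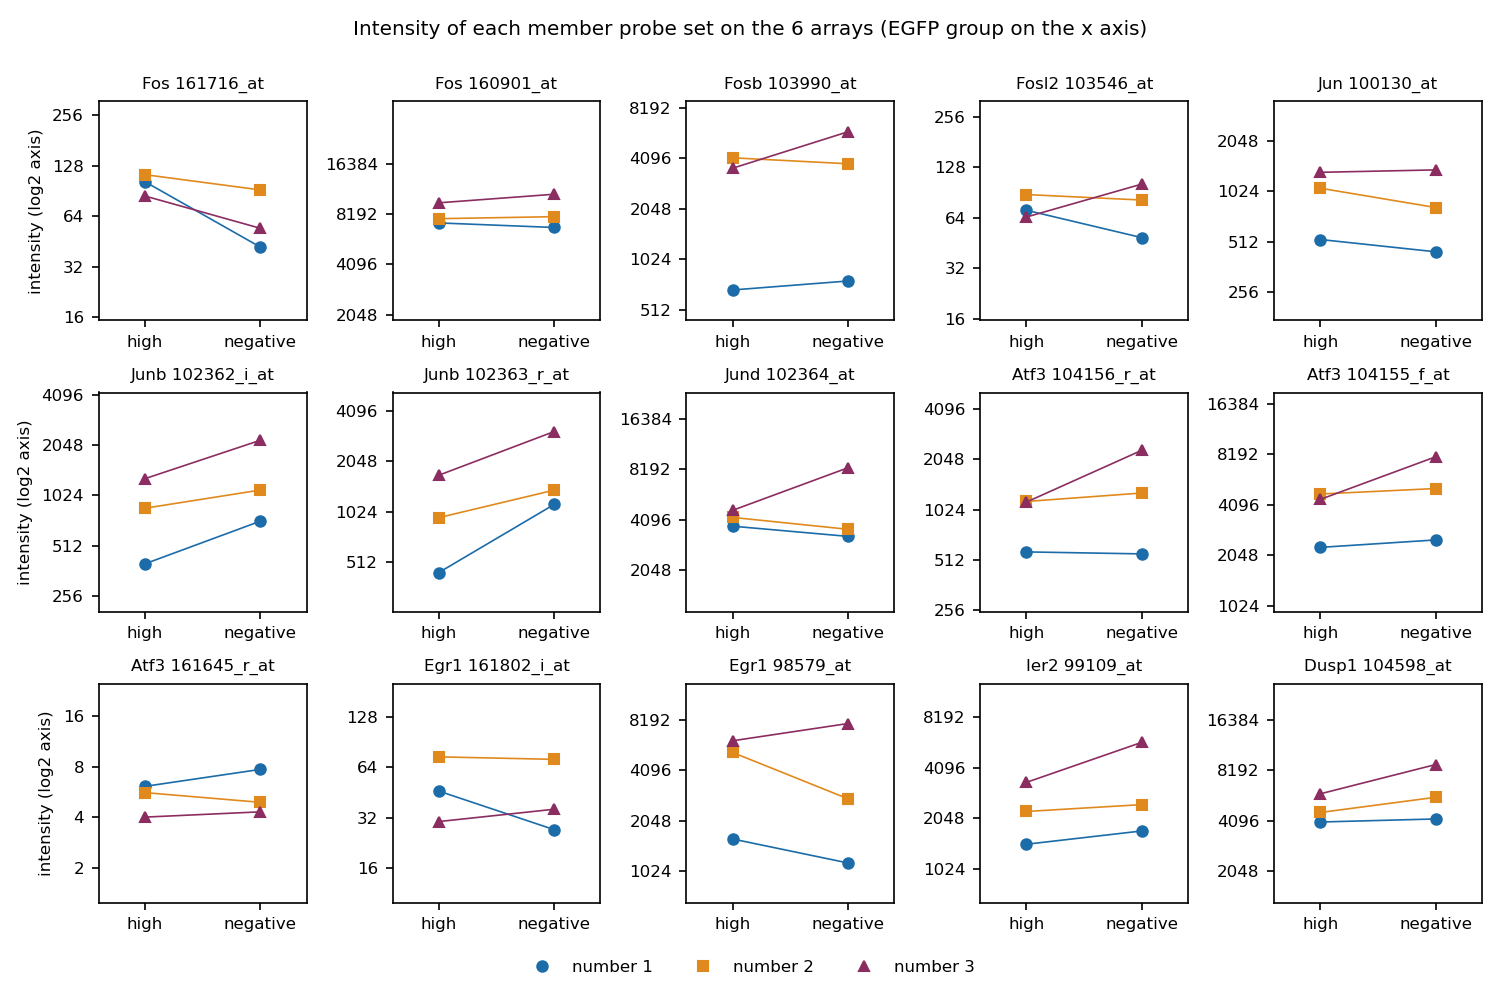
Intensity of each of the 15 member probe sets on the 6 arrays, on log2 axes that each span the same range of folds; x axis, EGFP group; colours, markers and lines join the 2 arrays of a replicate number. For Fosb, Jun, Junb, Atf3 (104156_r_at and 104155_f_at), Egr1 (98579_at) and Ier2 the lines of number 1 lie lowest, as in the values of Fosb, 673.4 and 761.7 at number 1 against 3581.4 to 5910.1 on the other 4 arrays.

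Among the Fos proteins, which must pair with a Jun protein to bind DNA, Fos itself read high on every array. Its main probe set (160901_at) read 7248.2, 7681.6 and 9551.4 on EGFP-high arrays 1, 2 and 3 and 6809.7, 7897.3 and 10744.5 on EGFP-negative arrays 1, 2 and 3. The values interleave, number 3 was highest in both groups, and the difference was -0.04 (SE 0.20, adjusted p = 0.946, limma; 95% interval -0.50 to 0.42). The other Fos probe set (161716_at) was dim, at 102.6, 113 and 84.3 against 41.8, 91.6 and 54.1. It was higher in EGFP-high in all 3 numbers, as were 21.9% of all tested probe sets, but the ranges overlap and the difference of 0.58 (SE 0.25) did not pass (adjusted p = 0.277, limma). Of the 2 Fos probe sets, only the dim one had its 3 within-number differences on the same side.

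Fosb had the widest range of the members. It read 673.4, 4132.1 and 3581.4 in EGFP-high and 761.7, 3808.2 and 5910.1 in EGFP-negative cells. Both arrays of number 1 were far below the other 4, and the groups overlap almost completely (difference -0.26, SE 0.82, adjusted p = 0.916, limma). Fosl2, also called Fra-2, read 71.1, 88.2 and 64.8 against 48.8, 81.8 and 101.9. This is a low level, within a few fold of the background, and its difference was -0.01 (SE 0.25).

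Among the Jun proteins, Junb had the largest differences and was the member whose call depended on how the arrays were treated. Junb forms AP-1 dimers that can restrain Jun activity and is known for a part in epidermal inflammation. Its brighter probe set (102363_r_at) read 444.7, 945.2 and 1692 in EGFP-high and 1133.4, 1379.5 and 3083.7 in EGFP-negative cells. The other (102362_i_at) read 400.6, 859.4 and 1289.4 against 719.6, 1103.3 and 2185.2. Junb was lower in EGFP-high within every number on both probe sets, a pattern that 22.9% of all tested probe sets had, while the ranges of the groups overlap. On 102363_r_at the differences within numbers 1, 2 and 3 were -1.31, -0.54 and -0.86, with a mean of -0.90 (SE 0.49, adjusted p = 0.407, limma without the replicate number). With the replicate number as a block the Junb differences stayed the same, their SEs were smaller and both probe sets passed (limma). The values were -0.90 (SE 0.16, adjusted p = 0.00922) on 102363_r_at and -0.64 (SE 0.13, adjusted p = 0.0201) on 102362_i_at. These were 2 of 14 member probe sets lower and 0 higher with the block, where 10.4% of all tested probe sets passed, 5.13% higher and 5.31% lower. At an unadjusted p below 0.05 there were 6 of 14 member probe sets with the block, against 23.7% of all tested. Both probe sets carry suffixes of designs with fewer or less strictly chosen probes, and as measures of the same gene they are not separate support. The blocked calls were not kept by both probe sets under every choice. Without both arrays of number 3 neither passed (adjusted p = 0.0598 and 0.12), and without both arrays of number 1 or without the intensity trend only 102363_r_at did (adjusted p = 0.016 and 0.036).

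Jun and Jund, the other partners, showed no difference that passed with or without the block. Jun read 528, 1067.7 and 1328.2 in EGFP-high and 445.9, 818.8 and 1373 in EGFP-negative cells. The differences within numbers 1, 2 and 3 were 0.23, 0.38 and -0.05, with a mean of 0.19 (SE 0.42, adjusted p = 0.875, limma). Jund read 3755.3, 4237.1 and 4669.2 against 3265, 3598.3 and 8379.2. A single array, EGFP-negative replicate 3, was far above the rest, and Jund was higher in EGFP-high in numbers 1 and 2 (0.20 and 0.23) and lower in number 3 (-0.84).

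Atf3, a stress-induced ATF protein that pairs with Jun, read 2286.8, 4759.2 and 4420.8 against 2533.1, 5129.2 and 7937.3 on 104155_f_at, whose suffix marks probes that may also bind similar transcripts. Its probe set 104156_r_at read 572.1, 1143.5 and 1134.2 against 556.7, 1284.2 and 2310.8. Number 1 was lowest in both groups on both of these probe sets. The differences of -0.37 and -0.38 had SEs of 0.41 and 0.47 and did not pass.

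Egr1, a zinc finger factor that is not part of AP-1 but answers the same signals, ranged almost as widely as Fosb. It read 1594.1, 5229.6 and 6137.9 in EGFP-high and 1146.5, 2767.3 and 7779.2 in EGFP-negative cells on 98579_at. Number 1 was again lowest, and Egr1 was higher in EGFP-high in numbers 1 and 2 (0.47 and 0.91) and lower in number 3 (-0.34). The mean difference of 0.35 had an SE of 0.68 (adjusted p = 0.857, limma). Its other probe set, 161802_i_at, read 27.2 to 73.9, fell at or below the background on 1 array and did not follow the brighter probe set across numbers.

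Ier2, an immediate early nuclear protein, and Dusp1, a phosphatase that switches off MAP kinases, were both lower in EGFP-high within every number. Ier2 read 1432.8, 2246.7 and 3350.5 against 1719.7, 2468.6 and 5808.4. Dusp1 read 4032.7, 4596.5 and 5938.8 against 4205.5, 5664.6 and 8880.4. In both genes the order of the numbers was the same in the 2 groups and the ranges overlap. Their differences of -0.40 and -0.31 did not pass without the block (adjusted p = 0.721 and 0.634, limma) or with it (adjusted p = 0.135 and 0.153).

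**Figure D2:**
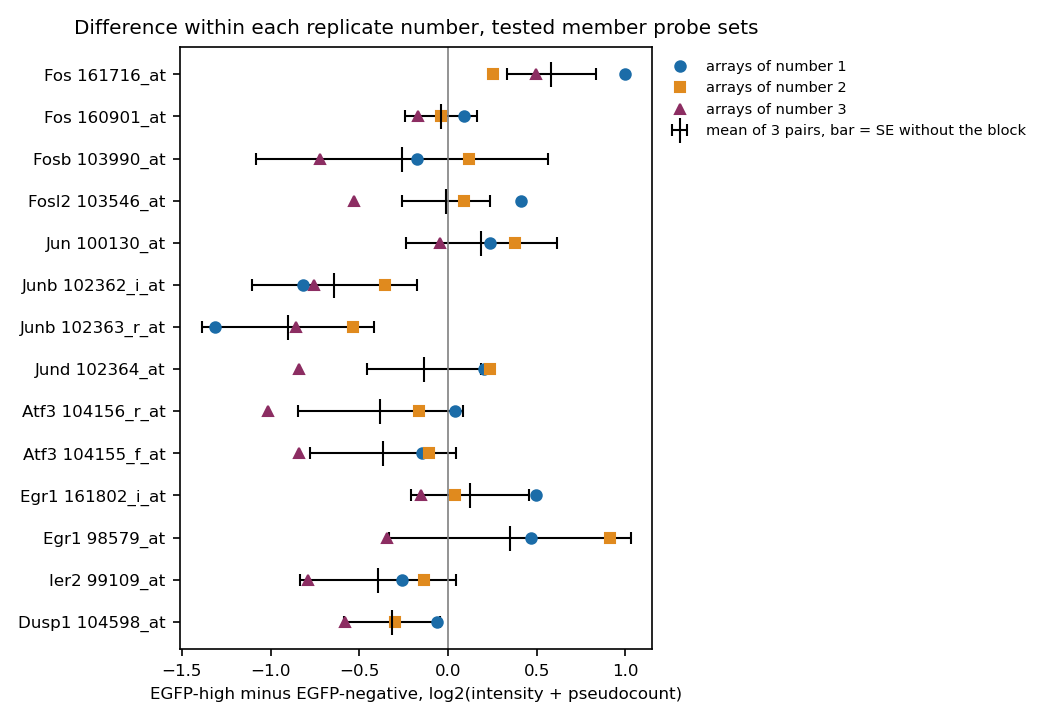
EGFP-high minus EGFP-negative difference on the log2 scale (x axis) for the 14 tested member probe sets (y axis); points are the differences within replicate numbers 1, 2 and 3, the black tick is their mean and the bar is the standard error of the fit without the block. Both Junb probe sets lie below 0 in all 3 numbers, and the points of number 3 lie below 0 for 13 of the 14 probe sets.

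The differences within numbers were not alike. Within number 3, 13 of 14 member probe sets were lower in EGFP-high, with a median of -0.65, where 50.8% of all tested probe sets were lower and their median was -0.01. Within number 1, 6 of 14 were lower (median 0.06), and within number 2, 7 of 14 (median 0.00). Each number has 1 array in each group, so a difference between numbers in the group effect could not be tested.

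The members followed the replicate number more closely than the EGFP group. On the log2 scale the replicate number held a median of 82.6% of the sum of squares of a member probe set over the 6 arrays, against 40.7% for all tested probe sets. The EGFP group held a median of 5.21%, against 21.7% for all. There are 3 numbers and 2 groups, so the number takes the larger share even where neither has an effect. Each share is therefore to be read against that of all tested probe sets. For Fosb the number held 96.9%, for Jun 95.6%, for Fos (160901_at) 93.9% and for Egr1 (98579_at) 90.5%. For the dim Fos probe set the group held 53% and the number 32.2%, and for Fosl2 52.9% was left over after both.

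**Figure D3:**
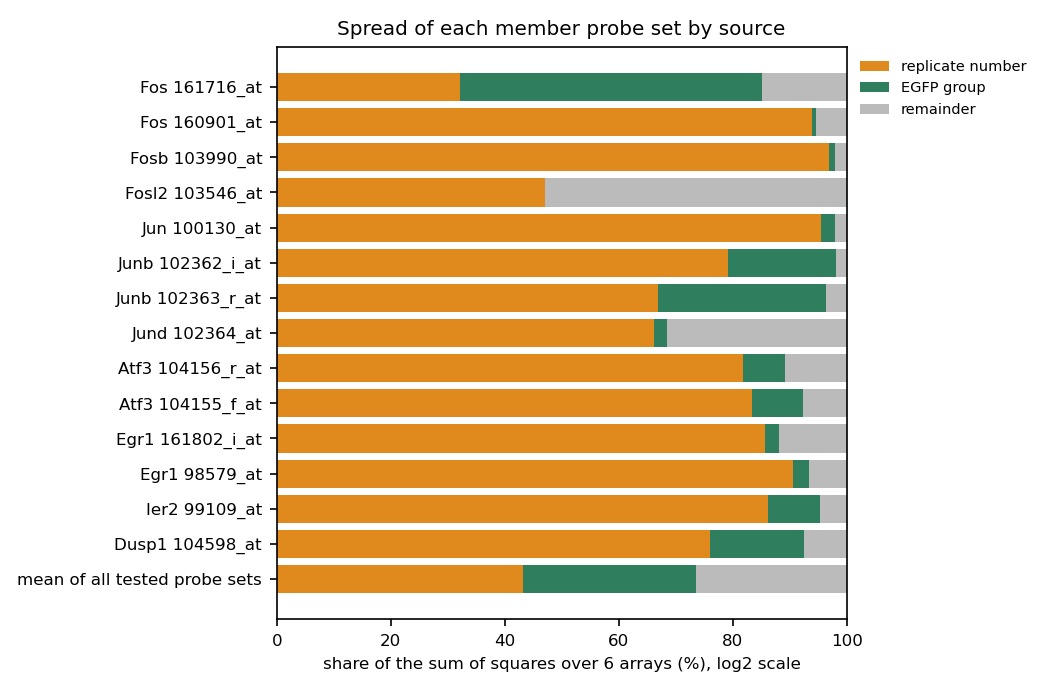
Share of the sum of squares over the 6 arrays, in percent on the log2 scale, held by the replicate number, the EGFP group and the remainder for each of the 14 tested member probe sets, with the mean over all tested probe sets as the last bar. The number holds 96.9% for Fosb and 95.6% for Jun, where the mean over all tested probe sets is 43.2%.

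A test of the replicate number, in a fit with both group and number, was added after these values were seen. For 7 of 14 member probe sets, of 6 genes (Fosb, Jun, Junb, Egr1, Ier2 and Atf3), the number passed an adjusted p of 0.05, where 0.832% of all tested probe sets (62 of 7453) passed (limma F test, Benjamini-Hochberg). In all 7 the arrays of number 3 were above those of number 1. Fosb had the smallest p of all tested probe sets for the number (adjusted p = 0.011): relative to number 1 it was higher by 2.44 at number 2 and by 2.65 at number 3 (SE 0.19 each), or 5.32-fold from number 1 to number 3 in EGFP-high and 7.76-fold in EGFP-negative cells. Egr1 (98579_at) was 2.34 higher at number 3 than at number 1 (SE 0.26, adjusted p = 0.0251), 3.85-fold in EGFP-high and 6.79-fold in EGFP-negative cells. Junb was 1.66 and 1.61 higher on its 2 probe sets, Ier2 1.48, Jun 1.44 and Atf3 (104155_f_at) 1.29. Dusp1 (0.82, SE 0.14, adjusted p = 0.0795, limma F test) and Jund (0.83) did not pass, nor did Fos on 160901_at (0.53, SE 0.12, adjusted p = 0.123). Atf3 on 104156_r_at did not pass either (1.49, SE 0.24, adjusted p = 0.0599), so Atf3 is counted through 104155_f_at alone. The dim probe sets of Fos (161716_at, 0.015), Egr1 (161802_i_at, -0.07) and Fosl2 (0.36) also did not pass. Both arrays of number 1 were below both arrays of number 3 for 11 of the 14, against 15.1% of all tested probe sets.

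That count rested on certain choices. Without EGFP-negative replicate 3 a single probe set passed among all tested, Fosb (adjusted p = 0.0139), so the list genes named below by number did not pass without that array. Without both arrays of number 1, without the intensity trend or without the filter on low values, 0 member probe sets passed. Of all tested probe sets 13, 0 and 0 passed under the same choices. At an unadjusted p below 0.05 there were 9, 10 and 11 member probe sets, against 14.9%, 15.6% and 12.9% of all tested (limma). Measures of RNA integrity and of other cells were read by number. The ratio of the 5′ to the 3′ control probe set of beta-actin was 0.705 and 0.795 at number 1, 0.492 and 0.629 at number 2, and 0.662 and 0.712 at number 3, in EGFP-high and EGFP-negative cells in that order. Number 2 had the lowest ratios in both groups, and the 3′ control itself was also lowest there (5192.7 and 5611.7). The part of RNA integrity in the result was not tested.

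Markers of other cell types were summed on each array, over all markers of a type that the platform holds, including those below background. Of 8 T cell markers on the array 1 was above background on all arrays, and their summed intensity was 429.8, 454.4 and 745.6 in EGFP-high arrays 1, 2 and 3 and 391.6, 355.1 and 381.8 in EGFP-negative arrays 1, 2 and 3. Of 11 Langerhans cell and macrophage markers 4 were above background on all arrays. The sum of all 11 was 669.9, 914.5 and 742 in EGFP-high arrays 1, 2 and 3 and 853, 668 and 556 in EGFP-negative arrays 1, 2 and 3. The macrophage genes Lyz2, Adgre1, Itgam, Fcer1g and Tyrobp were below the background everywhere. Fibroblast markers (4 of 10 above background) summed to 1856, 2137 and 1908 against 1386, 1638 and 1570, lowest at number 1 in both groups. Those of the other types were 394 to 500.5 against 423 to 500.6 for endothelial cells (2 of 9) and 616 to 716 against 456.5 to 500.1 for melanocytes (4 of 8). The endothelial sum was lowest at number 3 in both groups. Markers of basal keratinocytes summed to 15287, 18844 and 18871 in EGFP-high and 18388, 20238 and 21366 in EGFP-negative arrays 1, 2 and 3, and those of the bulge to 21804, 25332 and 27970.5 against 3212.5, 3575 and 4681. The sums of the basal and bulge markers were lowest at number 1 in both groups. Single genes weighed on them. In EGFP-negative arrays 1, 2 and 3 the basal marker Sfn read 3487.5, 4836.5 and 6552.9, and Col17a1 7528.2, 7025.7 and 6527.3. The bulge marker Id2 read 174.4, 244.4 and 1032.8 there. Over both groups 8 of 9 tested basal and 12 of 15 tested bulge markers were higher at number 3 than at number 1. The share of all named genes was 48.2%. The number passed for 0 of these markers, against 0.817% of named genes (limma F test). The part of these cell types in the result was not tested. In sorted populations, fewer cells of a type and less RNA per cell cannot be told apart.

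Other genes of the same pathways were mostly not called between the groups. A gene is counted here by its brightest probe set, and 300 of 5628 named genes (5.33%) passed, 3.06% higher and 2.27% lower in EGFP-high. Of 31 other immediate early genes 2 were higher and 0 lower (median difference -0.20). Ccn2, a secreted matrix-associated growth factor, read 1229.3, 1918.1 and 2417 against 122.1, 253.6 and 318.3 (difference 2.94, SE 0.34, adjusted p = 0.00165, limma). Sgk1, a serum- and glucocorticoid-regulated kinase, read 1139.5, 1213.1 and 1667.6 against 784.7, 476.2 and 713 (1.02, SE 0.23, adjusted p = 0.0358, limma), and did not pass without EGFP-high replicate 2 or 3 or EGFP-negative replicate 2 or 3 (adjusted p = 0.0718 to 0.147), with median scaling (0.0581) or with no filter on low values (0.0614). In both genes every EGFP-high array was above every EGFP-negative array. Both are named because they passed the test, so this is no separate support. The groups did not overlap, in either direction, for 0 of the 14 tested member probe sets and for 22.7% of all tested. With the block 5 of the 31 other immediate early genes were higher and 6 lower, where 10.6% of all named genes passed with it in either direction. Among them were Phlda1, Gadd45g and Ier3 higher and Tnfaip3, Socs3 and Gadd45a lower, named after their values were seen. Tnfaip3 read 48.6, 9.6 and 136 in EGFP-high and 103.9, 112.7 and 638.4 in EGFP-negative cells. Its value on EGFP-high replicate 2 lay below the background of that array, as did Phlda1 on EGFP-negative replicate 1 (29.7).

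Of 17 tested AP-1 partners and other leucine zipper factors 1 was higher and 0 lower (median -0.11). This was Cebpd, a CCAAT-binding leucine zipper factor, at 366.8, 562.8 and 698.8 against 177.7, 205 and 234.6 (1.28, SE 0.24, adjusted p = 0.0141, limma). It did not pass without EGFP-high replicate 2 (adjusted p = 0.0594) or replicate 3 (0.061). With the block Cebpa was lower (-0.68, adjusted p = 0.0157), so that the list held 1 in each direction. Of 12 tested genes known to carry AP-1 sites in keratinocytes 1 was higher and 0 lower (median -0.24). It was Krt6a, a keratin of the companion layer and of activated epidermis, at 2501.9, 3611 and 3855.6 against 383.9, 319.2 and 350.8 (3.15, SE 0.19, adjusted p = 5.18e-05, limma).

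The lists of MAP kinase cascade genes, phosphatases and heat shock genes held 0 called genes between the groups, with 4 of 19, 2 of 7 and 2 of 18 at an unadjusted p below 0.05 against 17.8% of all named genes (limma). In the list of 19 MAP kinase cascade genes the largest differences were -0.65 for Map3k5 and 0.50 for Map3k1, both kinases at the top of the cascade, and Map3k1 passed with the block (adjusted p = 0.0373, limma). Among 7 dual specificity phosphatases, relatives of Dusp1, they were 1.15 for Dusp2 and 0.96 for Dusp8, and Dusp8 passed with the block (adjusted p = 0.0331, limma). Among 18 heat shock and chaperone genes they were 1.10 for Hspa1l and 0.56 for Bag3. With the block 2 of these 18 were higher, Hspa1a and Hspa1b (adjusted p = 0.033 and 0.0378, limma), near-identical copies whose probes can share signal. That count is near the 10.6% of all named genes that passed with the block. Some of the largest differences in these lists involve dim values. Map3k5 read 20 on EGFP-high replicate 2, below the background of that array. On EGFP-negative replicate 2, Dusp2 read 25.6 and Hspa1l 17, also below the background.

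Read by replicate number, the other immediate early genes were higher at number 3, as most members were. All 31 tested genes of that list were higher at number 3 than at number 1, by 0.05 to 2.24 with a median of 1.11, where 48.2% of all tested named genes were higher and the median was -0.02. The number passed for 9 of the 31, against 0.817% of named genes (limma F test). Nr4a1, an orphan nuclear receptor, read 996.9, 2384.7 and 2819.1 in EGFP-high and 952.4, 2339.8 and 5752.8 in EGFP-negative arrays 1, 2 and 3. Zfp36, which speeds the decay of cytokine and immediate early transcripts, read 849.5, 1686.2 and 2617.9 against 941.2, 1964.7 and 5123.8. The others were Ier3, Ccn1, Ccn2, Rhob, Plk3, Tnfaip3 and Socs3. Ccn2 thus differed between the groups and also with the number. Plk3 was highest at number 2 rather than number 3.

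In 3 of the remaining lists 1 gene each passed for the number, where 0.817% of all named genes passed. At an unadjusted p below 0.05 there were 7 of 17 leucine zipper factors, 2 of 7 phosphatases and 8 of 18 heat shock and chaperone genes, against 17.3% of all named genes (limma F test). The number passed for 1 of the 17 leucine zipper factors, Cebpb (1.28 higher at number 3 than at number 1, adjusted p = 0.0251, limma F test). Fosl1, the AP-1 subunit Fra-1, read 39.4, 50.7 and 113.6 in EGFP-high and 11, 81.1 and 468.2 in EGFP-negative cells. It did not pass (adjusted p = 0.121, limma F test), and both its values at number 1 lie below the background of their arrays. The number passed for 1 of 7 phosphatases, Dusp6, a phosphatase of ERK kinases (1.80 higher at number 3), and for 1 of 18 heat shock and chaperone genes, Dnajb9, a chaperone of the endoplasmic reticulum (2.21 higher). It passed for 0 of 12 genes with AP-1 sites, where Hbegf, an EGF receptor ligand, was 1.91 higher (adjusted p = 0.0513, limma F test) and 4 of the 12 had an unadjusted p below 0.05. Among the 19 MAP kinase cascade genes it also passed for 0, with 1 at an unadjusted p below 0.05 against 17.3% of all named genes (limma F test). In that list 4 genes were higher at number 3 than at number 1, and the median was -0.10.

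**Figure D4:**
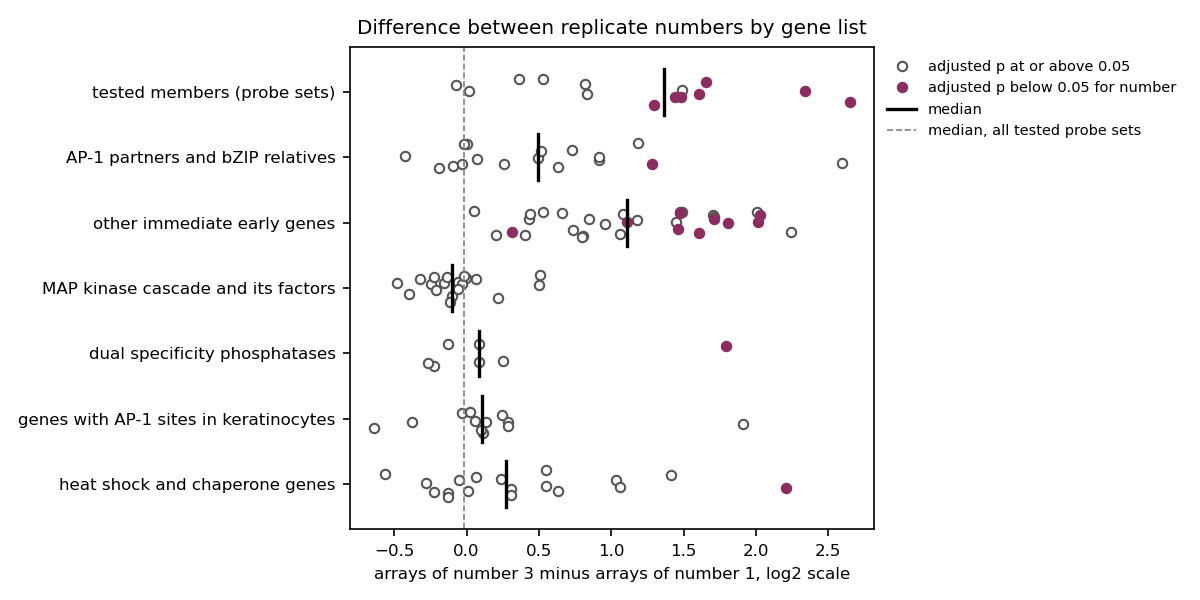
Difference between the arrays of number 3 and number 1 on the log2 scale (x axis), for the tested member probe sets and for the tested genes of 6 lists (y axis); filled points passed an adjusted p of 0.05 for the replicate number, black ticks are list medians and the dashed line is the median of all tested probe sets. The 31 other immediate early genes lie at 0.05 to 2.24, all above 0, and the 19 MAP kinase cascade genes have a median of -0.10.

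Profiles most like those of the members were sought among the other named genes, by the root mean square difference of log2 profiles over the 6 arrays after centring each gene. For the member probe set with the smallest adjusted p between groups, the dim 161716_at of Fos, the nearest were Fzd3 (0.072), Myo6 (0.11), Rgs8 (0.11), Gm20362 (0.12) and Pelo (0.13). For Fosb, chosen after the values were seen, the nearest were Irs2 (0.43), an adaptor of insulin signalling, Epha2 (0.44), an ephrin receptor, and the immediate early genes Nr4a1 (0.49), Ccn1 (0.54) and Zfp36 (0.60). Counting any probe set of a gene rather than its brightest, 56 named genes passed for the number, of which 6 were members, 14 others were on a pathway list and 36 were on neither. Of all 62 probe sets that passed, 45 were higher at number 3 than at number 1, the members' 7 among them.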

How the data were processed

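The table deposited by the authors has 12488 probe sets in its rows, each with a linear intensity on every array; the software behind it is not given in the sources used here, and the 2% trimmed mean of each array was 150.1, so the arrays share a common scale. With 6 arrays, precision is set by their number. The 66 control probe sets were omitted. Probe sets were named from the platform annotation through Entrez identifiers in a RefSeq table (GRCm38.p6). Of the others 10833 had 1 symbol, of which 10817 matched, 396 had several and were not named, and 1193 had none. Values were analysed as log2(intensity + 19.3), the pseudocount being the 25th percentile of deposited values above 0; a fold on this scale understates the change of dim genes. Probe sets with a mean above the 40th percentile, near an intensity of 44.5, were tested (7453). Differences were fitted with limma 3.58.1 in R 4.3.3 (lmFit, then eBayes allowing a trend with intensity; two-sided). P-values were adjusted by Benjamini-Hochberg over all tested probe sets, with a threshold of 0.05. The fit was tested on simulated data.

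Samples were grouped by their titles. After subtracting group means, arrays with the same number in the 2 groups correlated at 0.336, 0.368 and 0.305 (limit 0.1) and others at -0.0629 or below. By this limit the numbers pair the samples, which the labels do not state. The values given first come from the fit without a block, and those with the replicate block are given where it changed a call. The test of the replicate number was added after the values were seen. Every member probe set is named. From each gene list the genes past the threshold are named, at most 6 in each direction, or at most 2 by size where none passed, and the 5 genes nearest in profile to a member. Members, lists and rules were chosen with earlier results of these data known. Alternatives were other pseudocounts, no filter, quantile or median scaling, no trend, the block and leaving out arrays.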

Additional observations from a re-analysis of the deposited data

How the results depend on the processing

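No alternative without the replicate block gave a member probe set that passed between the groups. With the replicate block 778 of 7453 probe sets passed, 2 member probe sets were lower, and all named genes that passed came to 10.6% in place of 5.33%, those of the pathway lists to 18 in place of 4 (3 to 7 when single arrays were left out, 7 without EGFP-negative replicate 3). All tested probe sets that passed came to 191 to 500 when single arrays were left out. Of 196 member differences recomputed under the alternatives, 172 kept their direction and their side of the threshold, 22 changed sign without passing, and the 2 Junb differences passed with the block. Quantile normalization turned Fos (160901_at) to 0.15 and Jund to 0.13, and leaving out both arrays of number 1 turned Egr1 (161802_i_at) to -0.057. Leaving out single arrays gave -0.18 to 0.14 for Fos (160901_at), -1.13 to 0.57 for Fosb and -0.24 to 0.17 for Fosl2. It gave -0.22 to 0.57 for Jun, -0.38 to 0.29 for Jund and -0.77 to 0.10 for Ier2. For Atf3 it gave -0.91 to 0.10 (104156_r_at) and -0.81 to 0.013 (104155_f_at). For Egr1 it gave -0.32 to 1.05 (98579_at) and -0.11 to 0.41 (161802_i_at). When single arrays were left out, Jund, Ier2 and these Atf3 probe sets were above 0 only without EGFP-negative replicate 3. The cause was not tested. Junb stayed below 0 under all alternatives, at -1.35 to -0.41 and -1.01 to -0.19. The count of member probe sets past the threshold for the replicate number was 7, and 1 to 9 when single arrays were left out. Of all tested probe sets 62 passed, and 1 to 182 when single arrays were left out. The member count was 0 with no filter on low values and 0 with no intensity trend, where 0 of all tested probe sets passed. It was also 0 without both arrays of number 1, where 13 of 7453 (0.174%) passed. The dim Atf3 probe set (161645_r_at), below the background on all 6 arrays, has no value here, and no alternative background was run.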
